A study of Bos taurus with 12 samples.

Results

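A set of 10 transcription factors known from the development and function of the uterus was followed in bovine endometrium, and among them TFAP2C had the largest difference between old and young females, lower in the old, at a size that did not pass the adjusted test. The 10 genes were TFAP2C, TFAP2A, FOXA1, FOXA2, FOXL2, SOX17, HAND2, MSX1, MSX2 and NR2F2, chosen by name from the gene symbol or description that the array gives each probe. All 10 were on the array, with 11 transcripts and 28 probe names that hold 20 different sequences, out of 26323 transcripts and 61333 probes measured. Biopsies of intercaruncular endometrium taken on day 15 of a synchronised estrous cycle were hybridised singly to 12 one-colour arrays. Old females (OF, 13 to 14 years, nulliparous, n = 4) and young females (YF, 4 to 5 years, primiparous and more than 1 year past calving, n = 4) were Holstein clones of 1 cell donor cow, so parity cannot be told apart from age in that comparison. For the contemporary cows (CP, n = 3) neither age, parity nor clone status is given in the labels. A further contemporary cow, CP 1111, was left out by the submitters and is used here only as an alternative. The clones share 1 genome, which limits how far their spread stands for that of other cattle.

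In the adult uterus, FOXA2 and SOX17 are known from the epithelium and glands, MSX1 and MSX2 are homeobox factors of the developing and receptive epithelium, and HAND2 and NR2F2 act in the stroma, where NR2F2 answers hedgehog signals from the epithelium and HAND2 restrains fibroblast growth factor signals sent back to it. FOXL2 is best known from the ovary and is also expressed in ruminant endometrium. TFAP2A and TFAP2C are AP-2 factors of ectoderm, trophoblast and other epithelia, and FOXA1 is a pioneer factor that opens chromatin for steroid receptors.

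What the array read for each factor depended on its probes, so the sequences of those that matter below come first. They are the designed 60-base probes, placed by the array's annotation on the assembly UMD3.1, and a position is that of the whole transcript. FOXA1 (chr21:48214179-48217962) and FOXA2 (chr13:41910591-41911910) carry probes that match each other over much of their length. They are shown in pairs with capitals at the bases where the 2 genes differ, because one gene's probes stood far nearer to background than the other's.
FOXA1 probe 1: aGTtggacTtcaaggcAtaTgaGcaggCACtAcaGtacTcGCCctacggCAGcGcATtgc
FOXA2 probe 1: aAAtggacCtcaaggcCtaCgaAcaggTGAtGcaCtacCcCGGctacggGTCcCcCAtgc
FOXA1 probe 2: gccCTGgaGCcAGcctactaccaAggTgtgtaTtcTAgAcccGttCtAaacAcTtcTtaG
FOXA2 probe 2: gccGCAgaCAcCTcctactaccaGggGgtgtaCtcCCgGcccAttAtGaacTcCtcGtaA
The first pair is identical at 39 of 60 bases and the second at 40 of 60, and both second probes end in a stop codon that is the first in its reading frame. FOXA1 probe 1 was well above background on 0 of 11 arrays, while FOXA1 probe 2 and both FOXA2 probes were so on all 11.

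The FOXL2 transcript (chr1:131242444-131243577) is read by 2 probes that share nearly every base, so they are hardly separate measurements. Capitals mark the run of 58 bases they have in common.
FOXL2 probe 1: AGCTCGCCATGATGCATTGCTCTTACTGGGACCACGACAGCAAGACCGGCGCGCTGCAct
FOXL2 probe 2: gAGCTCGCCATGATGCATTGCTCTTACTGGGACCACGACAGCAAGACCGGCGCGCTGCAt
They were well above background on 4 and 7 of the 11 arrays. The 2 SOX17 probes (chr14:23884842-23886642) likewise share a run of 58 bases, and those of MSX1 (chr6:106061463-106065759) a run of 31.

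TFAP2A (chr23:45480546-45499034) has one probe within reach of the array and one at its limit. Of the former, 30 bases are shown with capitals at AATAAA, the usual polyadenylation signal, which stands in 7.97% of the 50922 different probe sequences of the array as printed and in 3.15% as the reverse complement. In the members it stands in 1 of 20 as printed and in 0 of 20 as the reverse complement.
TFAP2A probe 1: gttgcccagataAATAAAtatttgatacgc
TFAP2A probe 2: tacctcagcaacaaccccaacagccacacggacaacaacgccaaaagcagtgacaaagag
Probe 1 was well above background on all 11 arrays in both its copies, and probe 2 on 3 arrays in one copy and on 1 in the other. For TFAP2C (chr13:59903160-59912715) and MSX2 (chr20:6360600-6365489) the first 30 bases of each probe are given, since for TFAP2C the 2 probes gave like differences and for MSX2 they did not.
TFAP2C probe 1: ggaattgaactccttgcctgtaaatgttcc
TFAP2C probe 2: aagcgtctccttcactctggacgagatgtt
MSX2 probe 1: ccttgcatgcaccaccctcagcctcagcgg
MSX2 probe 2: ttaatctgccagatgcgccccccacccctt
Both probes of both genes were well above background on all 11 arrays. NR2F2 has 2 transcripts (chr21:10793104-10800183 and chr21:10793454-10806663) whose probes are the same 2 sequences. HAND2 (chr8:5747710-5749915) has 2 probe sequences in 2 copies each.

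A level below is log2 of the processed intensity minus the 75th percentile of that array, averaged over the probes of a transcript, so that 0 stands for the 75th percentile. That percentile ranged from 968 to 1597 intensity units over the 11 arrays, between 71.56% and 74.93% of spots were well above background, and 0 were saturated. Arrays correlated at 0.951 to 0.992 over all transcripts and no pair held identical values. Epithelial and stromal marker genes were read on every array. The mean level of 14 epithelial markers lay between -0.43 and 2.48 and that of 13 stromal markers between 2.48 and 3.60. A pair of animals, YF 1069 and OF 2258, stood apart. The epithelial score, the mean deviation of the 14 markers from their mean over 11 arrays, was -1.09 in YF 1069 and -2.05 in OF 2258 and lay between -0.16 and 0.86 in the other 9. The score of 10 smooth muscle markers was 4.01 in OF 2258 and 2.41 in OF 0234, against -1.52 to 0.08 in the others. In a piece of tissue, fewer cells of a type and less RNA per cell cannot be told apart. The labels do not say more of the replicates than that they are separate animals.

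TFAP2C, an AP-2 factor, was low in the old females and high in 1 of the young. In YF its level was -3.84 in 1069, -1.40 in 1070, -2.95 in 1072 and -4.36 in 1127. In OF it was -3.89 in 0233, -5.11 in 0234, -4.16 in 0245 and -5.85 in 2258. In CP it was -2.85 in 1068, -1.96 in 1128 and -3.49 in 1129. The OF and YF ranges overlapped, since YF 1127 lay below 2 of the OF, whereas every CP lay above every OF. YF 1070 and CP 1128 were the highest animals and OF 2258 the lowest.

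**Figure D1:**
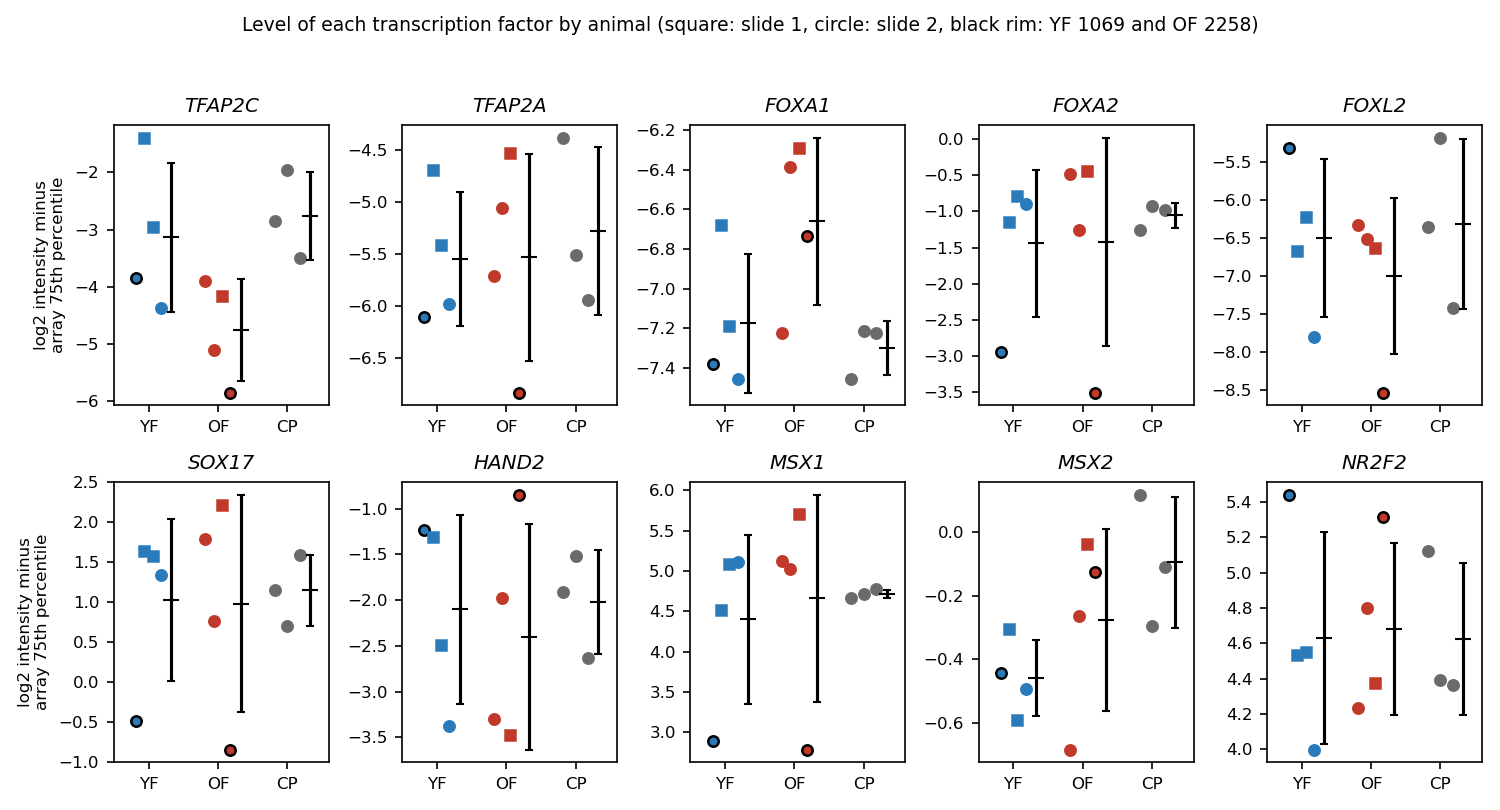
Log2 level of each transcription factor (y axis, log2 intensity minus the array's 75th percentile, each panel with its own scale) in YF, OF and CP animals (points) with the group mean and SD (bars beside the points). YF 1069 and OF 2258, with a black rim, lie at the bottom of FOXA2, SOX17 and MSX1 and at the top of NR2F2, and only in TFAP2C do the CP lie wholly above the OF.

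The YF mean of TFAP2C was -3.14 ± 1.30 (SD, n = 4). The OF mean was -4.75 ± 0.90 (SD, n = 4), which gives a log2 difference of -1.62 (95% interval -3.16 to -0.07) or a ratio of 0.326. The limma p was 0.0424 before and 0.999 after Benjamini-Hochberg adjustment over 19755 transcripts, and the exact two-sided permutation p was 0.114, where 4 against 4 animals allow 0.0286 at the least. A larger absolute difference was measured for 0.572% of the transcripts tested. FCROS, the rank method named in the study's methods, called TFAP2C lower in OF, with an f-value of 0.00315 and a fold change of 0.270 from arithmetic means. FCROS called 1 of the 10 factors, TFAP2C, against 4.94% of all 26323 transcripts. The 10 were chosen with earlier results of these data known, so this call is no independent evidence. Probe 1 and probe 2, shown above, gave -1.82 and -1.42. The difference was -1.04 without YF 1070, -1.25 without OF 2258 and -0.83 after normexp background correction. Within slide 2, with 3 OF and 2 YF, it was -0.85, and within slide 1, with 1 OF and 2 YF, it was -1.99. Epithelial markers were lower in OF than in YF for 12 of 14, with a median difference of -0.29 and 0 passing an unadjusted limma p of 0.05. Smooth muscle markers were higher in OF for 10 of 10, with a median of 2.02, and ciliated cell markers lower for 10 of 10, with a median of -0.71. The ciliated score was -3.15 in OF 2258, while the other OF lay inside the YF range of -1.36 to 1.70. The OF with the high smooth muscle scores, 0234 at 2.41 and 2258 at 4.01, had the lowest TFAP2C levels of all animals, -5.11 and -5.85, and OF 2258 also had the lowest epithelial score, -2.05. Other animals ran differently. YF 1127, with TFAP2C at -4.36, had the lowest smooth muscle score, -1.52, and an epithelial score of 0.37. OF 0245, at -4.16, had the highest epithelial score, 0.86. YF 1069, with an epithelial score of -1.09, had TFAP2C at -3.84, above every OF. The part of these markers in the TFAP2C result was not tested.

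Against the contemporary cows TFAP2C showed its widest gap. The CP mean was -2.77 ± 0.77 (SD, n = 3), 1.98 above OF on the log2 scale (95% interval 0.70 to 3.27) or 3.96-fold. The limma p was 0.00776 before and 0.904 after adjustment over 19914 transcripts, and the exact permutation p was 0.0571, the smallest that 3 against 4 animals allow. The groups did not overlap for 5.79% of the transcripts tested, and among the members this was so for 1 of the 9 tested, TFAP2C. Within slide 2, where the 3 CP lie, the difference over 3 CP and 3 OF was 2.18. Over both slides it was 2.13 with CP 1111 added, an animal on slide 1. For the 3 CP and 4 OF after normexp background correction the difference was 1.02. Cell type markers differed as well between CP and OF. Smooth muscle markers were lower in CP for 10 of 10, with a median of -1.97 and 0 at an unadjusted limma p under 0.05. The smooth muscle score was 2.41 in OF 0234 and 4.01 in OF 2258, but -1.03 in OF 0233 and -0.31 in OF 0245. In CP that score ran from -0.83 to -0.40. Ciliated cell markers were higher for 10 of 10, with a median of 1.51 and 2 under 0.05, TEKT1 and CCDC39. The ciliated score was -3.15 in OF 2258, -0.22 to 0.50 in the other OF and -0.11 to 1.25 in CP. Stromal markers were higher for 11 of 13, with a median of 0.47 and 3 under 0.05, THY1, COL1A2 and FBLN1. Epithelial markers were higher for 10 of 14 (median 0.45, 0 under 0.05), endothelial markers for 11 of 12 (median 0.27, TEK and EMCN under 0.05) and leukocyte markers for 8 of 10 (median 0.10, CD14 under 0.05). Of all transcripts tested in CP against OF, 4.57% had an unadjusted limma p under 0.05. None of these markers passed the adjusted p, and their part in the TFAP2C result was not tested. Against YF the CP mean was 0.37 higher (95% interval -1.25 to 1.98, limma adjusted p = 0.9999, exact permutation p = 0.686), but 1.33 within slide 2. Without YF 1127 and without CP 1128 the sign turned, at -0.04 and -0.03. Both comparisons with CP share animals with that of OF and YF, so the 3 differences are not separate evidence.

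**Figure D2:**
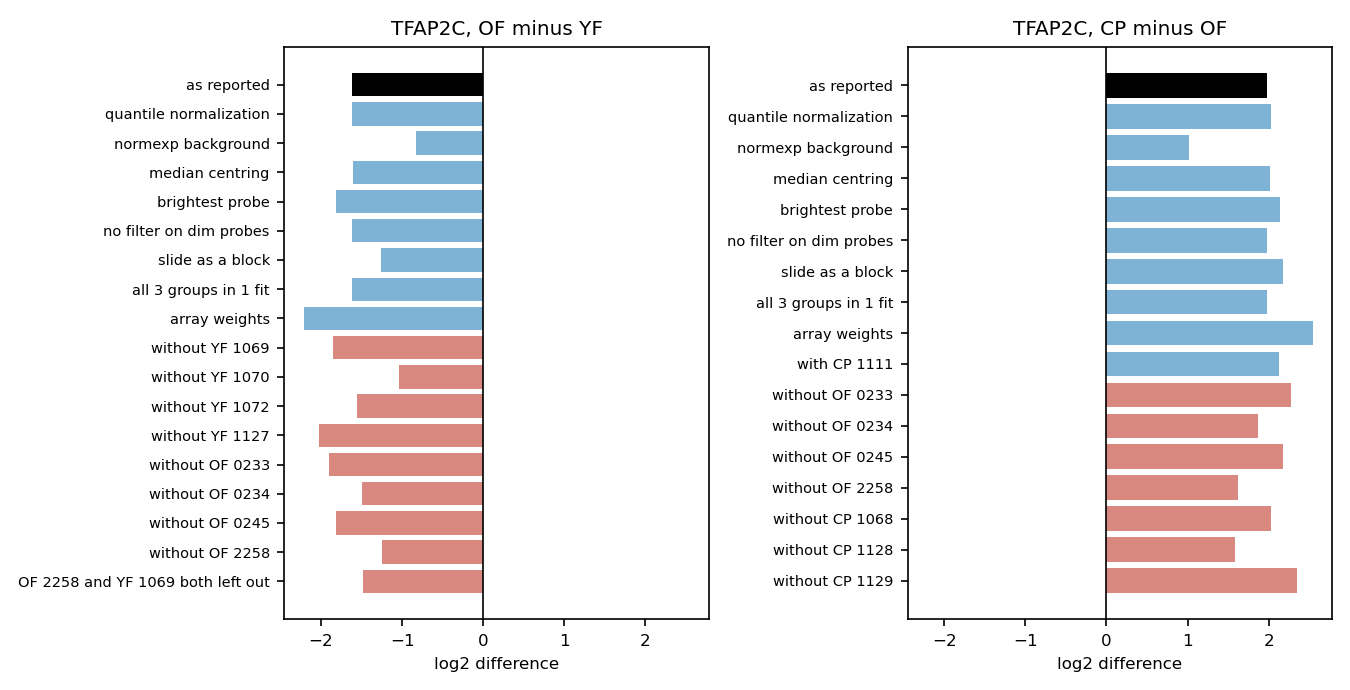
Log2 difference of TFAP2C (x axis) for OF minus YF (left) and CP minus OF (right), as reported (black), under other processing (blue) and with animals left out (red). The bars run from -2.21 to -0.83 on the left and from 1.02 to 2.54 on the right, all on one side of 0 in each panel.

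TFAP2A, the second AP-2 factor among the 10, showed no such difference between the OF and YF means. Its level was -6.11, -4.69, -5.41 and -5.98 in YF 1069, 1070, 1072 and 1127. It was -5.71, -5.06, -4.53 and -6.84 in OF 0233, 0234, 0245 and 2258, and -4.38, -5.51 and -5.94 in CP 1068, 1128 and 1129. The 3 groups overlapped. OF 2258 was the lowest animal and YF 1070 the highest YF, as for TFAP2C, and over the 11 arrays the genes correlated at a Pearson r of 0.511 (0.632 on deviations from the group means), a description of points that share arrays. OF and YF means differed by 0.01 (95% interval -1.16 to 1.18, limma adjusted p = 0.9997, exact permutation p = 0.971). That mean hides opposite signs, because probe 1 gave -0.47 and -0.19 in its copies and probe 2, mostly at background, gave 0.46 and 0.25. CP was 0.27 above YF and 0.26 above OF, with 95% intervals of -0.79 to 1.33 and -1.13 to 1.65.

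FOXA2, the factor of uterine glands, was split by animal, and no difference between the OF and YF means was resolved. Its level was -2.95 in YF 1069 and -3.51 in OF 2258. In the other 9 animals it lay between -1.26 and -0.44. The other YF had -1.14 in 1070, -0.79 in 1072 and -0.90 in 1127, the other OF -0.48 in 0233, -1.26 in 0234 and -0.44 in 0245, and the CP -1.26 in 1068, -0.93 in 1128 and -0.98 in 1129. YF 1069 was 2.01 and OF 2258 2.78 log2 units below the mean of the rest of its group, whereas group means differed by 0.02 between OF and YF (95% interval -1.70 to 1.74, limma adjusted p = 0.9997, exact permutation p = 1). The 95% intervals were -0.78 to 1.56 for CP minus YF and -1.31 to 2.04 for CP minus OF.

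SOX17, an endodermal SRY-box factor that acts with FOXA2 in uterine glands, showed the same split. Its level was -0.48 in YF 1069 and -0.84 in OF 2258, and 0.70 to 2.22 in the others. YF 1070, 1072 and 1127 had 1.64, 1.58 and 1.35, OF 0233, 0234 and 0245 had 1.79, 0.77 and 2.22, and CP 1068, 1128 and 1129 had 1.16, 0.70 and 1.59. The OF minus YF difference was -0.04 (95% interval -1.70 to 1.62, limma adjusted p = 0.9997), 0.57 without OF 2258 and -0.54 without YF 1069. CP minus YF was 0.13 and CP minus OF 0.17, with 95% intervals of -1.10 to 1.35 and -1.47 to 1.80.

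MSX1, a homeobox factor tied to receptivity, completed the trio. It stood at 2.89 in YF 1069 and 2.79 in OF 2258. The other animals lay between 4.52 and 5.71, namely 4.52, 5.08 and 5.11 in YF 1070, 1072 and 1127, 5.13, 5.02 and 5.71 in OF 0233, 0234 and 0245, and 4.66, 4.71 and 4.77 in CP 1068, 1128 and 1129. The CP were close together, with an SD of 0.06 against 1.04 in YF and 1.29 in OF. OF minus YF was 0.26 (95% interval -1.36 to 1.88, limma adjusted p = 0.999, exact permutation p = 0.714), 0.88 without OF 2258 and -0.25 without YF 1069. CP minus YF was 0.31 (95% interval -0.88 to 1.505) and CP minus OF 0.06 (95% interval -1.44 to 1.55). Without OF 2258, CP minus OF was -0.57, with a limma p of 0.0371 and an adjusted p of 0.891.

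**Figure D3:**
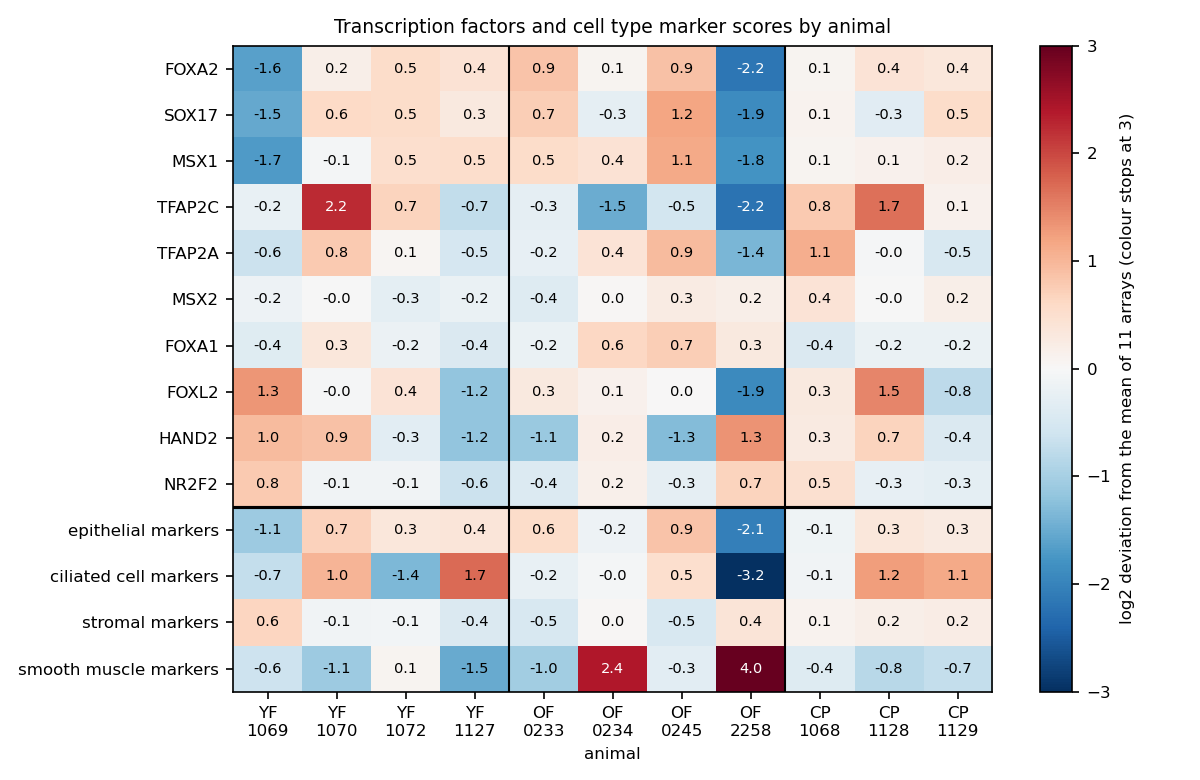
Log2 deviation of each transcription factor (upper rows) and of 4 cell type marker scores (lower rows) from the mean over 11 arrays, for each animal (columns, by group). FOXA2, SOX17 and MSX1 are lowest in YF 1069 and OF 2258, the 2 animals with the lowest epithelial score, where HAND2 and NR2F2 are above their mean.

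Over the 11 arrays FOXA2 followed SOX17 with a Pearson r of 0.943 and MSX1 with 0.969, and SOX17 followed MSX1 with 0.919. These are descriptions of points that share arrays and rest on the same 2 low animals. With both of those animals left out, an alternative added after the values were seen, OF minus YF was 0.22 for FOXA2, 0.07 for SOX17 and 0.38 for MSX1, and 0 of the 3 had a limma p under 0.05 before adjustment. The epithelial markers were low in the same 2 animals as given above, and the smooth muscle score was high in OF 2258 at 4.01 but not in YF 1069 at -0.61. The part of tissue composition in these levels was not tested.

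FOXA1 lay near the limit of the array. Its level, which averages a probe that is at background with one that is not, was -7.38, -6.68, -7.19 and -7.45 in YF 1069, 1070, 1072 and 1127, and -7.22, -6.39, -6.29 and -6.73 in OF 0233, 0234, 0245 and 2258. In CP 1068, 1128 and 1129 it was -7.45, -7.21 and -7.22. OF 0234 and OF 0245 lay above every YF, and OF 0233 lay among the CP. OF minus YF was 0.52 (95% interval -0.07 to 1.10, limma p = 0.0768, adjusted p = 0.999, exact permutation p = 0.143). CP minus OF was -0.64 (95% interval -1.22 to -0.05, limma p = 0.0366, adjusted p = 0.912, exact permutation p = 0.171). On probe 2 alone, which every array detected, these differences were 0.39 and -0.35, with limma p of 0.0237 and 0.137. With slide as a block they were 0.64 and -0.52, with limma p of 0.0219 and 0.0849. After normexp background correction they were 0.22 and -0.23, with limma p of 0.109 and 0.201. CP minus YF was -0.12 (95% interval -0.63 to 0.38).

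FOXL2 was not tested by limma, because in no group did either probe stand well above background on every array. Its level was -5.31, -6.67, -6.22 and -7.81 in YF 1069, 1070, 1072 and 1127, and -6.33, -6.51, -6.63 and -8.54 in OF 0233, 0234, 0245 and 2258. In CP 1068, 1128 and 1129 it was -6.35, -5.18 and -7.42. Probe 2 was well above background in 2 OF, 3 YF and 2 CP, and probe 1 in 2, 1 and 1. The groups overlapped, and the exact permutation p was 0.514 for OF against YF, 0.743 for CP against YF and 0.457 for CP against OF. A difference in FOXL2 was not detectable at this signal over background.

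HAND2 and NR2F2, the stromal factors, ran the other way in the animals that stood apart. HAND2 was at -1.23 in YF 1069 and -0.85 in OF 2258, the highest of each group. The remaining levels were -1.30, -2.49 and -3.38 in YF 1070, 1072 and 1127, -3.30, -1.98 and -3.48 in OF 0233, 0234 and 0245, and -1.91, -1.52 and -2.63 in CP 1068, 1128 and 1129. OF minus YF was -0.30 (95% interval -1.87 to 1.27, limma adjusted p = 0.999, exact permutation p = 0.714). It was -1.58 within slide 1 and 0.26 within slide 2. Without OF 2258 it was -0.82 and FCROS then called HAND2 as well as TFAP2C. CP minus YF was 0.08 (95% interval -1.20 to 1.36) and CP minus OF 0.38 (95% interval -1.15 to 1.91).

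NR2F2, an orphan nuclear receptor also known as COUP-TFII, was at 5.44 in YF 1069 and 5.32 in OF 2258, again the highest of each group. YF 1070, 1072 and 1127 had 4.53, 4.55 and 4.00, OF 0233, 0234 and 0245 had 4.24, 4.80 and 4.37, and CP 1068, 1128 and 1129 had 5.12, 4.39 and 4.36. The OF values all lay inside the YF range. The differences were 0.05 for OF minus YF, -0.004 for CP minus YF and -0.05 for CP minus OF, with 95% intervals of -0.74 to 0.84, -0.83 to 0.82 and -0.81 to 0.70. Its other transcript, read by the same probe sequences, gave 0.06 for OF minus YF. FOXA2 and NR2F2 correlated at -0.841 over the 11 arrays, and HAND2 and NR2F2 at 0.759. The stromal marker score was 0.64 in YF 1069 and 0.40 in OF 2258, the highest of each group, and its part in the 2 factors was not tested.

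MSX2, the near relative of MSX1, was read by 2 probes far apart in level, with means of -3.90 for probe 1 and 3.31 for probe 2. Its level here is their average, which matches neither probe, and it stayed within a narrow range. Its level was -0.44, -0.30, -0.59 and -0.49 in YF 1069, 1070, 1072 and 1127, and -0.69, -0.26, -0.04 and -0.12 in OF 0233, 0234, 0245 and 2258. In CP 1068, 1128 and 1129 it was 0.12, -0.29 and -0.11. YF 1069 and OF 2258 did not stand apart, and every CP lay above every YF. CP minus YF was 0.36 (95% interval -0.02 to 0.74, limma p = 0.0589, adjusted p = 0.9999, exact permutation p = 0.0571), and MSX2 was 1 of the 9 members tested whose groups did not overlap there, against 3.83% of 19993 transcripts. The probes disagreed on it, since probe 1 gave 0.58 and probe 2 gave 0.14. They also disagreed on CP minus OF, with 0.60 and -0.23, where the mean of the probes gave 0.18 (95% interval -0.31 to 0.67). OF minus YF was 0.18 (95% interval -0.21 to 0.57, limma adjusted p = 0.999), where probe 1 gave -0.02 and probe 2 gave 0.38.

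**Figure D4:**
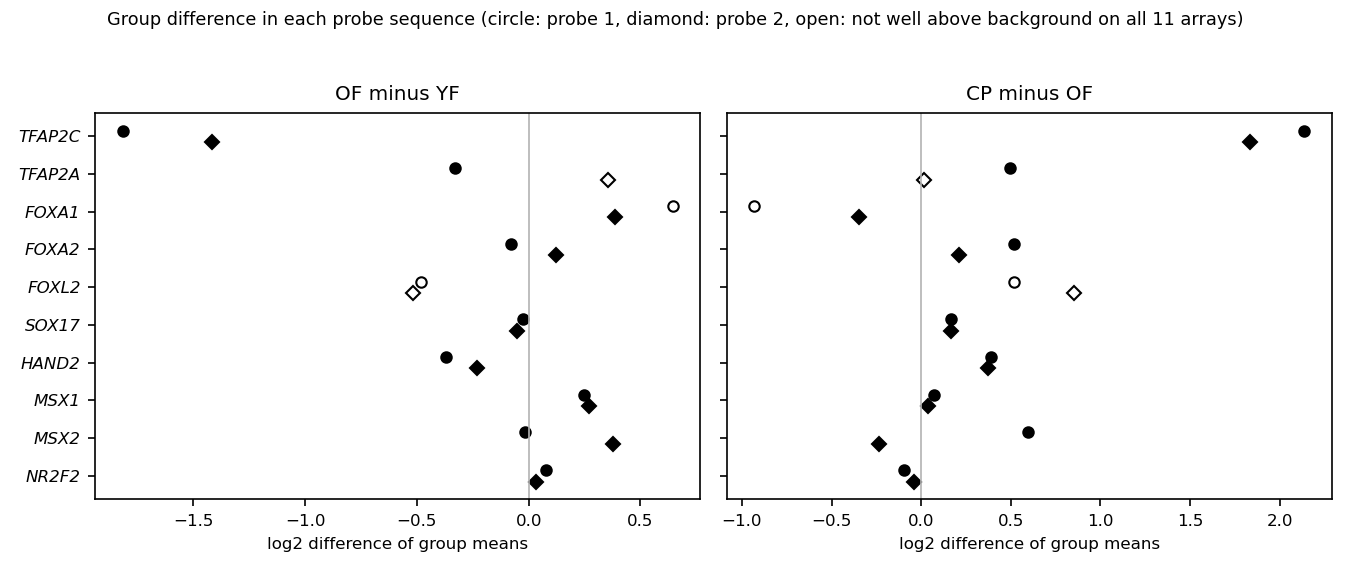
Log2 difference of group means (x axis) in each different probe sequence of the 10 genes, for OF minus YF (left) and CP minus OF (right). Copies of a sequence are averaged, and open marks were not well above background on all 11 arrays. Both TFAP2C probes lie at -1.82 and -1.42 on the left, while the MSX2 probes lie on either side of 0 on the right at 0.60 and -0.23.

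Over the 10 factors, 6 were higher and 4 lower in OF than in YF, with a median difference of 0.02 beside 0.00918 over the 19755 transcripts tested. Without FOXL2, which was not tested, 6 of 9 were higher, beside 51.67% of all. Among the 9 tested, 0 passed an adjusted limma p of 0.05, as did 0% of all transcripts, and 1 had an unadjusted p under 0.05, TFAP2C, beside 2.42% of all. The OF and YF ranges were apart for 0 of the 9, beside 1.53% of all. In CP against YF, 8 were higher and 2 lower, and of the 9 tested 7 were higher, beside 45.41% of all. Of these 9, 0 passed the adjusted p (0% of all) and 0 the unadjusted p (3.03% of all). In CP against OF, 8 were higher and 2 lower, and of the 9 tested 7 were higher, beside 43.56% of all. Of these 9, 0 passed the adjusted p (0% of all) and 2 the unadjusted p, TFAP2C and FOXA1 (4.57% of all). FOXA2, SOX17 and MSX1 followed each other over the arrays, and the comparisons share animals, so these are not counts of separate results.

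**Figure D5:**
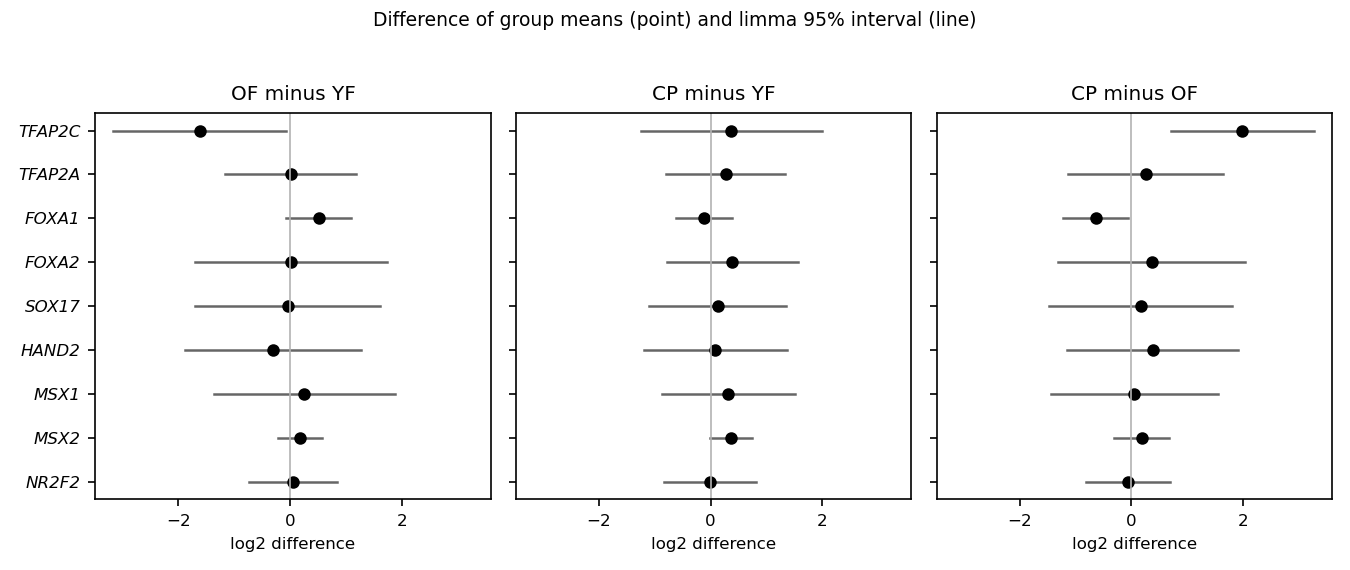
Log2 difference of group means (points, x axis) with the limma 95% interval (lines) for the 9 factors tested, in the 3 comparisons. The intervals of TFAP2C, TFAP2A, FOXA2, SOX17, HAND2 and MSX1 span more than 2 log2 units in each comparison. Those of TFAP2C in OF minus YF and CP minus OF, and of FOXA1 in CP minus OF, leave 0 out.

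Genes around the 10 factors were read from lists. To read their counts beside, 2.42% of all transcripts tested in OF against YF had an unadjusted limma p under 0.05. The share was 3.03% in CP against YF and 4.57% in CP against OF. Of 21 relatives in the same protein families, 14 were tested in OF against YF, 10 higher and 4 lower, with a median of 0.14 and 1 at an unadjusted limma p under 0.05. The forkhead factors FOXC2 and FOXO1 had the highest differences, 0.77 and 0.74, and FOXO1, a factor of decidual stroma, was the one under 0.05, with a limma p of 0.0233 and an adjusted p of 0.999. FOXF2 at -1.27 and NR2F1 at -0.64, the nearest relative of NR2F2, were lowest. All OF lay above all YF for FOXO1 and below them for NR2F1. The groups were thus apart for 2 of the 14 relatives tested, beside 1.53% of all transcripts tested. CP against YF had 11 relatives higher and 4 lower, and CP against OF 6 higher and 9 lower, with 0 under an unadjusted p of 0.05 in either.

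Of 30 other transcription factors of the uterus and its embryonic duct, 27 were tested in OF against YF, 16 higher and 11 lower, with a median of 0.09 and 0 at an unadjusted limma p under 0.05. MEIS2 (0.78) and KLF4 (0.75) were highest, and OSR1 (-1.02) and EHF, an epithelial ETS factor (-0.89), were lowest. In both comparisons with CP 15 of 28 were higher and 13 lower, again with 0 under 0.05.

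A list was read around the hedgehog path from epithelial IHH to stromal NR2F2, and it also holds BMP2 and WNT4. Of 9 genes tested, 2 were higher in OF and 7 lower, with a median of -0.26 and 0 at an unadjusted limma p under 0.05. GLI2 and HHIP, too near background to be tested, were at 0.90 and 0.75. IHH, the ligand, was at 0.60 and WNT4 at 0.33, whereas GLI1, a target and effector of the path, was at -0.87 and PTCH1, its receptor, at -0.46. SMO, the signal transducer, was lower in CP than in YF by a log2 difference of -1.01, with a limma p of 0.00554 and an adjusted p of 0.9999. It was lower in CP than in OF by a log2 difference of -0.77, with a limma p of 0.0127 and an adjusted p of 0.912. The groups did not overlap in either, beside 3.83% of all transcripts tested in CP against YF and 5.79% in CP against OF. SMO was the 1 gene of this list under 0.05 in each of these comparisons. The counts were 3 higher and 6 lower for CP against YF, and 5 higher and 4 lower for CP against OF.

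In the list around HAND2 and the fibroblast growth factors, 5 of 9 were higher in OF and 4 lower, with a median of 0.03. The receptors FGFR2 and FGFR1 were highest at 1.12 and 1.09, and the ligands FGF1 and FGF9 lowest at -0.92 and -0.75. FGF1 had an unadjusted limma p of 0.0344, FGF18, at a difference of 0.56, one of 0.0200, and both an adjusted p of 0.999. CP against YF had 7 of 10 higher and 3 lower, and CP against OF 5 and 5, with 0 under 0.05.

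Among genes tied to MSX factors and FOXA2, 1 of 8 was higher in OF and 7 lower, with a median of -0.25. BMP7 was at 1.64 and PTGS2, the inducible cyclooxygenase, at -0.02, and the lowest were SCARA5 at -0.83 and BMP4 at -0.62. BMP4 was the one under 0.05, with an unadjusted limma p of 0.0430 and an adjusted p of 0.999. CP against YF had 2 higher and 6 lower, and CP against OF 6 higher and 2 lower, with 0 under 0.05.

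Cell type markers were read in the same way for OF against YF. Smooth muscle markers were higher for 10 of 10, with a median of 2.02. KCNMB1 (2.89) and MYH11 (2.80) were highest and CALD1 (0.77) and LMOD1 (1.61) lowest, and TAGLN had an unadjusted limma p of 0.0438. The smooth muscle score was 2.41 in OF 0234 and 4.01 in OF 2258. OF 0233 at -1.03 and OF 0245 at -0.31 lay inside the YF range of -1.52 to 0.08. Ciliated cell markers were lower for 10 of 10, with a median of -0.71, FOXJ1 (-0.24) and DNAI2 (-0.34) highest and TEKT1 (-1.86) and RSPH1 (-1.48) lowest. The score of these 10 markers was -3.15 in OF 2258. The other OF, at -0.22 in 0233, -0.05 in 0234 and 0.50 in 0245, lay inside the YF range of -1.36 to 1.70. Epithelial markers ran from ELF3 (0.19) and KRT19 (0.04) to EPCAM (-0.50) and ST14 (-0.68). Stromal markers were lower for 10 of 13, from DPT (0.49) and COL6A3 (0.27) to COL1A2 (-0.46) and FBLN1 (-0.37). Endothelial markers were higher for 9 of 12, from CLDN5 (0.54) and KDR (0.53) to TEK (-0.42) and EMCN (-0.24), and CLDN5 had an unadjusted limma p of 0.0458. Leukocyte markers were higher for 7 of 10, from CD2 (0.30) and CD3E (0.25) to CD14 (-0.18) and CD3D (-0.06). Of the other markers tested, 0 had an unadjusted limma p under 0.05, and 0 in any of the lists passed the adjusted p.

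The transcripts whose pattern over the 11 arrays was most like that of each factor were sought among 17316 named transcripts tested in all 3 comparisons (17315 for NR2F2). For TFAP2C they were IL12A (Pearson r 0.916), EPAS1 (0.913), SCIN (0.892 and 0.890 for 2 transcripts) and MX1 (0.890). FOXA2 was most like LAD1 (0.989), SOX17 most like ZO3 (0.991), MSX1 most like bta-mir-30f (0.981) and NR2F2 most like NOL3 (0.973). HAND2 was most like TRIM44 (0.953), TFAP2A most like SC5DL (0.931), FOXA1 most like MIOX (0.921) and MSX2 most like bta-mir-2296 (0.909), each by the name the array gives. With 11 arrays and this many candidates such values are a description of these animals.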

How the data were processed

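Total RNA of endometrial biopsies was labelled with Cy3 and hybridised to a custom bovine array, 1 animal per array. The deposited files are the output of Agilent Feature Extraction, named in the submitters' processing notes, and give per spot the processed intensity (background corrected by that program) and flags. No normalization between arrays had been applied by the authors in these files. The settings of the program are not given in the sources used here. RNA integrity numbers ranged from 7 to 9.5 per the labels. Of the spots, 1319 were controls and were left out, with 66 probes flagged as outliers on any array. Log2 intensity minus the array's 75th percentile was averaged per probe and then per transcript. A gene's value is that of its transcript with the highest mean. Names came from the array annotation, and 4134 transcripts stayed unnamed.

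OF against YF (4 and 4 arrays), CP against YF and CP against OF (3 and 4) were fitted in limma 3.58.1 (R 4.3.3), two-sided, adjusted by Benjamini-Hochberg, at 0.05, over all transcripts for which some probe passed the background flag on each array of at least 1 group. FCROS was coded from its description (16 pairwise ratios, a share of 0.25 trimmed at each end, f-value beyond 0.025 or 0.975, fold change of 1.5). Exact permutation tests used scipy 1.17.1. Both the limma and the FCROS code were tested on simulated arrays. The 10 genes, the lists and the comparisons were chosen with earlier results of these data known, so they are no independent evidence. Named beyond the 10 are, in each list, the 2 highest and the 2 lowest in OF minus YF, and those that a count under 5 refers to. Alternatives were quantile normalization, normexp (offset 50), median centring, the brightest probe, dim probes kept, array weights, a block for the slide, a single fit of the 3 groups, FCROS without trimming or on the limma transcripts, CP 1111 included and each animal left out. OF 2258 and YF 1069 left out together was added after the data were seen. Slide and scan coincide. The number of arrays limits the precision.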

Additional observations from a re-analysis of the deposited data

Results flagged for a closer look

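In groups of 4 animals, an animal whose gap to its nearest neighbour takes up more of the group's range than Dixon's 95% critical value was marked, which chance alone gives for about 1 group in 20. Of the 20 groups that the 10 factors give in OF and YF, 3 were marked. FOXA2 stood at -2.95 in YF 1069, with a gap of 0.835 of the range. SOX17 stood at -0.48 in YF 1069, with a gap of 0.860. FOXL2 stood at -8.54 in OF 2258, with a gap of 0.866, on probes that were not well above background on every array. The same animals were the lowest for MSX1, with gaps of 0.732 in YF 1069 and 0.765 in OF 2258, and OF 2258 for FOXA2 with 0.734, all below the limit.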

How the results depend on the processing

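In the 3 comparisons 0 factors passed the adjusted limma p under every alternative run, and TFAP2C kept its sign in OF minus YF and in CP minus OF. Leaving out 1 animal gave -2.02 to -1.04 and 1.58 to 2.35 for TFAP2C in these. FCROS called TFAP2C in every setting, and leaving out 1 animal gave 1 to 2 factors called, with HAND2 added without OF 2258 and FOXA1 without YF 1070. The count of factors at an unadjusted limma p under 0.05 was 1 in OF against YF, with 0 after normexp or with OF 2258 and YF 1069 left out together, 2 with the brightest probe or array weights, TFAP2C and FOXA1, and 0 to 2 with 1 animal left out. With the slide block it was 1, FOXA1 in place of TFAP2C. In CP against YF it was 0, with 1 after quantile normalization and 0 to 1 with 1 animal left out. In CP against OF it was 2, with 1 after normexp, median centring, the brightest probe or a slide block, and 1 to 3 with 1 animal left out. The count of 3 was without OF 2258, where MSX1 was added at -0.57 with a limma p of 0.0371. The TFAP2C limma p in OF against YF was 0.0744 after normexp, 0.0528 with the slide block and 0.00258 with array weights. This limma p was 0.0936 without YF 1070, 0.0838 without YF 1072, 0.0897 without OF 0234 and 0.102 without OF 2258. It was 0.0193 to 0.0460 without YF 1069, YF 1127, OF 0233 or OF 0245. Without YF 1070 the 1 factor counted was FOXA1, with a limma p of 0.0276. Signs turned for small differences, and the cause was not tested. Quantile normalization gave -0.0039 for TFAP2A and -0.068 for NR2F2 in OF minus YF, 0.077 for NR2F2 in CP minus YF and 0.15 for NR2F2 in CP minus OF. The brightest probe gave -0.19 for TFAP2A and -0.080 for FOXA2 in OF minus YF, 0.041 for FOXA1 and 0.020 for NR2F2 in CP minus YF, and -0.23 for MSX2 in CP minus OF. Slide as a block gave 0.31 for SOX17 and -0.019 for NR2F2 in OF minus YF and 0.12 for FOXA1 in CP minus YF. Array weights gave -0.051 for FOXA2 in OF minus YF, -0.14 for TFAP2A and -0.40 for SOX17 in CP minus YF, and -0.27 for TFAP2A, -0.038 for SOX17 and -0.27 for MSX1 in CP minus OF. Median centring gave 0.039 for NR2F2 and CP 1111 gave -0.13 for HAND2 in CP minus YF, normexp -0.039 for TFAP2A in CP minus OF, and leaving out OF 2258 and YF 1069 together 0.067 for SOX17 in OF minus YF. With 1 animal left out, OF minus YF ran from -0.32 to 0.45 for TFAP2A, -0.48 to 0.72 for FOXA2, -0.54 to 0.57 for SOX17, -0.82 to 0.059 for HAND2, -0.25 to 0.88 for MSX1 and -0.16 to 0.32 for NR2F2. CP minus YF ran from -0.040 to 0.95 for TFAP2C, -0.18 to 0.60 for TFAP2A, -0.22 to 0.043 for FOXA1, -0.11 to 0.61 for FOXA2, -0.38 to 0.35 for SOX17, -0.34 to 0.39 for HAND2, -0.19 to 0.55 for MSX1 and -0.25 to 0.27 for NR2F2. CP minus OF ran from -0.19 to 0.59 for TFAP2A, -0.33 to 0.69 for FOXA2, -0.44 to 0.58 for SOX17, -0.57 to 0.40 for MSX1 and -0.30 to 0.16 for NR2F2. No paired analysis was possible because the groups share no animal numbers. Signal over background limits FOXL2, FOXA1 and TFAP2A. The dimmest TFAP2C readings, -5.85 (old female 2258) and -5.11 (old female 0234), lay near the TFAP2A mean of -5.47. Both TFAP2C probes were still well above background on all 11 arrays. Normexp shrank the TFAP2C differences, from -1.62 to -0.83 (OF minus YF) and from 1.98 to 1.02 (CP minus OF). The sizes of the TFAP2C ratios thus depend on the background correction, and the part of low signal was not tested.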
